A study of Homo sapiens with 6 samples.

Results

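The SOX and forkhead (FOX) genes encode 2 families of transcription factors, and 56 of them were compared between the small cell lung cancer lines H69M and H69. Members were all genes whose platform symbol was SOX followed by a number, or FOX followed by a letter and a number, with FOXA2 and FOXM1 left out by that rule. They comprised 19 SOX genes and 37 forkhead genes of 18404 genes measured, each read by 1 probe set that carried no other symbol. FOXD4 was listed only on probe sets that it shares with its near-identical copies and was not given a value. Total RNA of H69M and of H69, both labelled as small cell lung cancer cell lines, was measured on 3 arrays each. No treatment, genotype or time is given in the labels, which also do not say how H69M was obtained or whether the 3 arrays of a line came from separate cultures, so the p-values cover only how far these arrays differ from each other, which may be technical. H69 has long served as a neuroendocrine model and grows in suspension.

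SOX proteins bind DNA through an HMG box that sits in the minor groove and bends the helix, and they commonly act with a partner factor on the neighbouring bases. Forkhead proteins bind through a winged-helix domain; the FOXA proteins open closed chromatin in endoderm, and the FOXO proteins carry insulin and PI3K signals, since AKT phosphorylation moves them out of the nucleus. In the lung and its tumours SOX2 marks airway progenitors and is amplified in part of small cell lung cancers, SOX9 marks the distal bud, FOXJ1 drives motile cilia, and FOXF1 is a factor of the mesenchyme.

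The sequences below are the 250 bases before the transcription start, 5′ to 3′ on the strand of the gene, of the 2 members with the largest rises and the 2 with the largest falls among those that the RefSeq promoter table (GRCh38.p14) holds. They are shown so that the letters of the promoters can be set beside the values. SOX11, the member with the largest rise, is not in that table, so its promoter is not shown. FOXN3 moved less than FOXP2 and FOXA1, which fell and are in the table. FOXD1 lies at chr5:73448778-73449027, FOXN3 at chr14:89619166-89619415, FOXN4 at chr12:109309285-109309534 and SOX5 at chr12:24562492-24562741, all on the minus strand. Capitals mark every match, on either strand, to ACAAT (the SOX core), TAAACA (the forkhead core), GGGCGG (the GC box) or TATAAA (the TATA box); 2 matches overlap in FOXN4.
FOXD1: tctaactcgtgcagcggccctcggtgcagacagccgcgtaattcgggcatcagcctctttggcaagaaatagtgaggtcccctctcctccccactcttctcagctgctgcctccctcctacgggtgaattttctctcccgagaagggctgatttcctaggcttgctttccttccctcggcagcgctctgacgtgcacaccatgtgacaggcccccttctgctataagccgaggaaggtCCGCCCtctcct
FOXN3: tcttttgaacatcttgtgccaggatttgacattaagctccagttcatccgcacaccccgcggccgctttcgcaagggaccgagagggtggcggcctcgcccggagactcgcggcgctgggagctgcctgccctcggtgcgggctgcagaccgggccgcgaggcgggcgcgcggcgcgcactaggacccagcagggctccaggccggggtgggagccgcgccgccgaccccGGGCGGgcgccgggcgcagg
FOXN4: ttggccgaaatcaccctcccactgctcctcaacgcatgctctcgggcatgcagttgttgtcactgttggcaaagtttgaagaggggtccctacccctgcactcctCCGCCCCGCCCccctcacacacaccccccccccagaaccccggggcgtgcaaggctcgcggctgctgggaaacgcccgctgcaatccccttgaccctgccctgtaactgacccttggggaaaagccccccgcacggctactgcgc
SOX5: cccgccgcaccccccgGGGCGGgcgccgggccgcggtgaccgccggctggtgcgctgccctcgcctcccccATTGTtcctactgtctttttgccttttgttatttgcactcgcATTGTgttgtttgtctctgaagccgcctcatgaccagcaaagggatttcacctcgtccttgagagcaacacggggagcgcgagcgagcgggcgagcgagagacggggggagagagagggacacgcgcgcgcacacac

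In these windows FOXD1 and FOXN3, which were higher in H69M, held a GC box close to the start. FOXN4 and SOX5, which were lower, held GC boxes too, and SOX5 held the SOX core at 179 and at 137 bases before its start, both times on the opposite strand. The table held promoters for 39 of the 56 members. Their median GC content was 67.2%, against 58.0% over the 27305 genes of the table, with a median of 21 CpG pairs per window, against 11. The GC box was present in 28 of 39 (71.8%), against 42.3% of all promoters. The SOX core was present in 8 of 39 (20.5%), against 25.2% of all, the forkhead core in 2 (5.13%), against 11.1%, and the TATA box in 4 (10.3%), against 11.1%. Among members with a promoter, the SOX core was found in 0 of 4 that rose, 6 of 13 that fell (SOX5, SOX6, FOXP2, FOXJ3, FOXB1 and FOXD3) and 2 of 22 that did not pass the test (FOXP1 and FOXO4). These are counts of letters, looked at after the fold changes were known and not tested.

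Median log2 signal per array ranged from 6.43 to 6.48 over all 32321 probe sets. Across genes, arrays of the same line correlated with r between 0.995 and 0.998 and arrays of different lines with r between 0.938 and 0.950. H69M replicate 1 was the H69M array nearest to the H69 mean in 55.0% of all genes that passed the test, and in 12 of the 20 SOX and forkhead genes that did. Markers of cell identity also differed between the lines. Over all genes, 21.0% rose and 23.2% fell. Of 14 neuroendocrine markers 11 fell and 0 rose (median log2 fold change -0.84; mean level of the list 8.69 to 9.00 on the H69M arrays, against 9.65 to 9.69 on the H69 arrays). Of 14 fibroblast and mesenchymal markers 13 rose and 0 fell (median 4.36; mean level 9.92 to 10.23 in H69M, against 5.81 to 5.89 in H69). The part of these differences in the results below was not tested. Markers of other cell types were dim in both lines. Of 8 endothelial markers 2 rose and 1 fell (mean level 5.24 to 5.34 in H69M, against 5.13 to 5.27 in H69), and the defining marker PECAM1 was at 4.16 in H69M and 4.30 in H69. Of 8 leukocyte markers 1 rose and 4 fell (mean level 4.89 to 4.95 in H69M, against 4.98 to 5.03 in H69), and PTPRC was at 3.60 in H69M and 3.95 in H69. Of 5 Schwann and melanocyte markers 0 rose and 1 fell (mean level 3.99 to 4.12 in H69M, against 4.23 to 4.27 in H69), and MLANA was at 4.13 in H69M and 4.31 in H69. In bulk RNA, fewer cells of a type and less RNA per cell cannot be told apart.

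Most SOX and forkhead genes differed little between the lines, as most genes did. None of the 56 moved as far as the median of the mesenchymal markers (4.36). Few genes of any kind did, since 83 of all 18404 rose by more than 4 (log2). At a limma Benjamini-Hochberg adjusted p threshold of 0.05 (adjusted over all 18404 genes), 20 of the 56 passed (35.7%), against 44.2% of all genes. Of the 56, 5 rose (8.93%, against 21.0% of all genes) and 15 fell (26.8%, against 23.2%). The falls numbered 9 without H69 replicate 2, and 10 without H69M replicate 2 or without H69 replicate 3. SOX11 was the only member at least 2-fold higher in H69M (1 of 56, or 1.79%, against 5.56% of all genes), and FOXN4 the only one at least 2-fold lower (1 of 56, against 2.72%). The median log2 fold change was -0.080 over the 56 members, -0.044 over the SOX genes and -0.091 over the forkhead genes, against -0.041 over all genes. A log2 fold change of under 0.5 in either direction was measured for 48 of the 56 (85.7%), against 79.5% of all genes. No overlap between H69M and H69 arrays was seen for 27 of 56 members (48.2%), against 55.8% of all genes. None of these shares was tested against the rest of the genes.

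The members were slightly dimmer than the other genes. Their median level was 6.86, against 7.16 over all genes. Above that median of all genes, 13 of 24 members passed (54.2%), against 56.7% of all genes there, and below it 7 of 32 (21.9%), against 31.8%. A dim RMA value carries no detection call, and folds from it are compressed. The split into rises and falls also moved with the scaling: when each array was centred on its median, 24 members fell and 5 rose (82.8% of the calls were falls, against 75.0% as deposited), and the share of falls among the calls of all genes became 68.7%, against 52.5%.

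**Figure D1:**
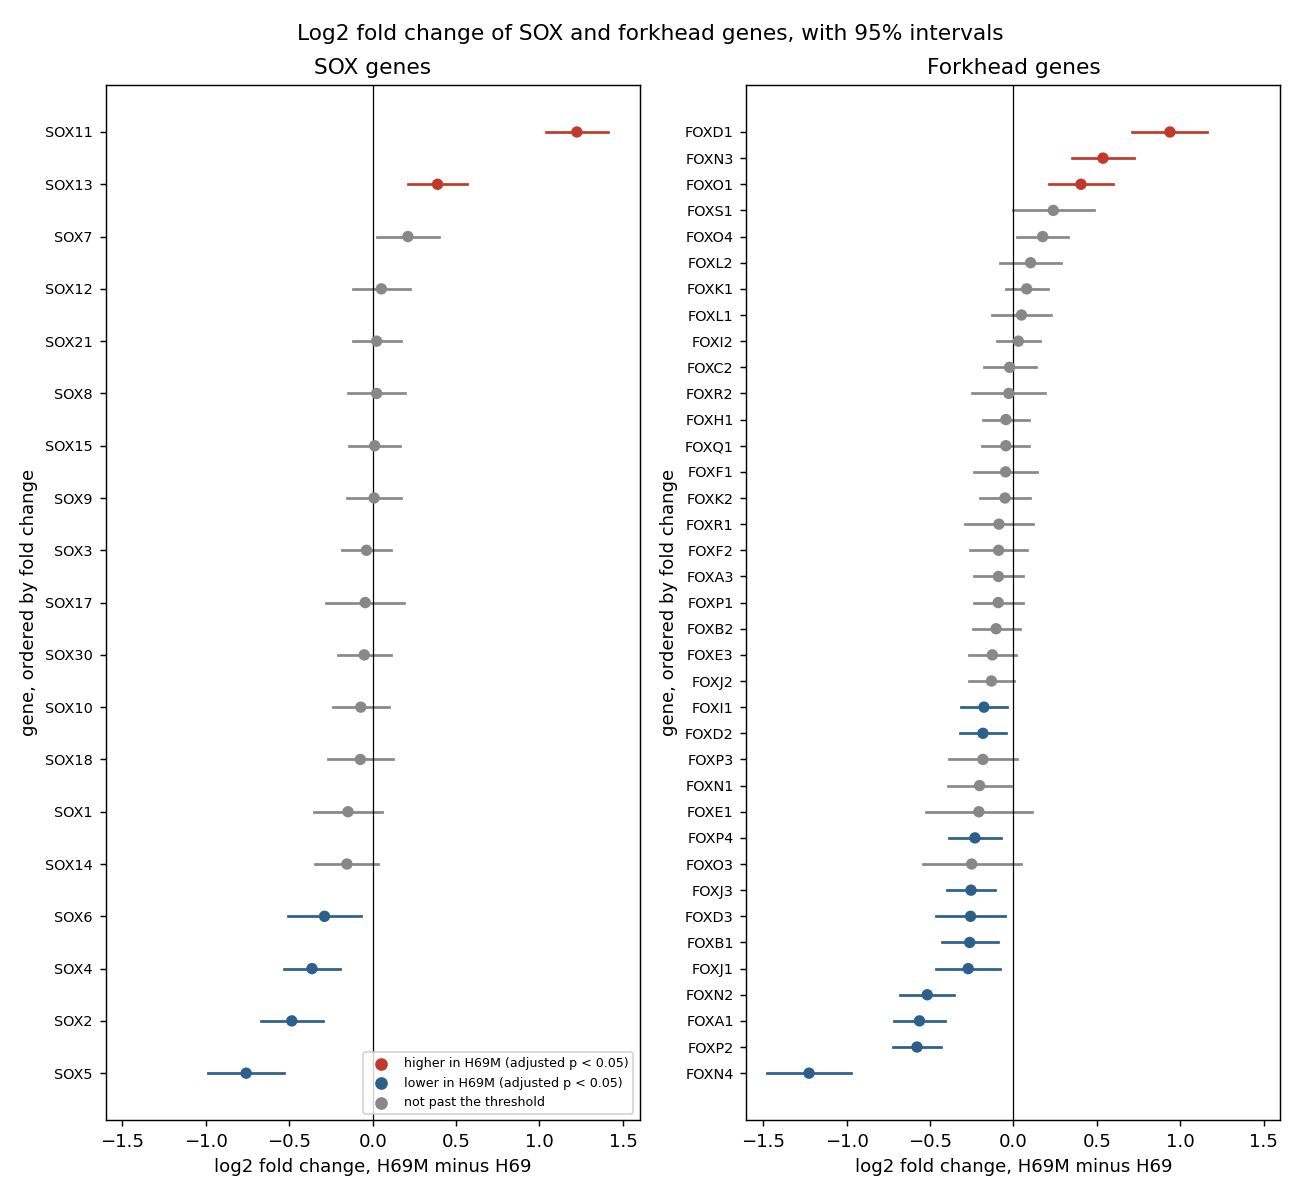
Log2 fold change (H69M minus H69, x axis) of the 19 SOX genes (left) and the 37 forkhead genes (right), with 95% intervals from limma that are not adjusted over genes. Most points lie near 0; SOX11 (1.22) and FOXN4 (-1.22) mark the ends, and 3 genes drawn as not passing (SOX7, FOXO4 and FOXN1) have intervals that leave out 0 but adjusted p-values above 0.05.

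SOX11, SOX4 and SOX12 form the SOXC group, activators that drive neuronal differentiation of progenitor cells, and SOX11 and SOX4 moved in opposite directions. SOX11 (probe set 8040070, chromosome 2) was at 9.16, 9.10 and 9.14 in H69M, against 7.93, 8.04 and 7.75 in H69 (log2). All 3 H69M arrays lay more than 1 log2 unit above every H69 array. The difference was 1.22 ± 0.080 (log2, SE), or 2.34-fold higher in H69M (limma, Benjamini-Hochberg adjusted p = 1.12e-05). SOX4 was at 8.71, 8.51 and 8.51 in H69M, against 8.97, 8.96 and 8.90 in H69. Its groups did not overlap, and it fell by 0.36 ± 0.073 (limma adjusted p = 0.00433). SOX12 had a log2 fold change of 0.052 (95% interval -0.12 to 0.22) that did not pass.

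The measured gene next to SOX11 on the side of higher coordinates was SILC1, a long non-coding RNA whose mouse counterpart raises Sox11 in injured sensory neurons. SILC1 moved against its neighbour: it fell to 5.62 in H69M, against 7.17 in H69, with a log2 fold change of -1.55 ± 0.071 (limma adjusted p = 1.82e-06). ALLC, the nearest measured gene on the other side, did not pass (-0.12, limma adjusted p = 0.282).

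Genes known as targets of SOXC proteins changed in both directions. Of 12 measured genes of that list, 6 rose and 4 fell (83.3% passed, against 44.2% of all genes; median log2 fold change 0.26). TEAD2, a partner of YAP that SOX4 and SOX11 activate in mouse embryos, rose by 2.68 ± 0.081 (log2, SE). NRP1, a semaphorin and VEGF co-receptor, rose by 1.13 ± 0.096. The neuronal microtubule gene DCX fell by 2.31 ± 0.087 and LEF1, a nuclear effector of WNT signalling, by 1.17 ± 0.070.

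SOX2, the SOXB1 factor of pluripotent and airway progenitor cells, was the brightest member and fell by a modest amount. It was at 11.58, 11.37 and 11.33 in H69M, against 11.98, 11.88 and 11.88 in H69. The groups did not overlap, and H69M replicate 1 was the H69M array closest to H69. The log2 fold change was -0.48 ± 0.080 (SE; 95% interval -0.67 to -0.30; limma adjusted p = 0.00157), so the signal stayed high in both lines. SOX3 and SOX1, the other SOXB1 genes, had fold changes of -0.037 and -0.15, and the SOXB2 repressor genes SOX14 and SOX21 of -0.15 and 0.024. None of these 4 passed.

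Of 16 measured partners and targets of the SOXB proteins, 5 rose and 4 fell (56.25% passed, against 44.2% of all genes; median -0.024). The neural progenitor filament gene NES rose by 0.93 ± 0.12 and the RNA-binding protein gene MSI1 by 0.74 ± 0.12 (log2, SE). POU3F2, the BRN2 factor that pairs with SOX2 in neural cells, rose by 0.50 ± 0.089. FABP7, a fatty acid binding protein of radial glia, fell by 0.89 ± 0.097. The pluripotency genes ZFP42, DPPA4, UTF1 and FGF4 did not pass, with fold changes between -0.095 and -0.013.

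The SOXD genes encode proteins with no transactivation domain of their own, and all 3 changed, in both directions. SOX5 was at 8.97, 8.65 and 8.72 in H69M, against 9.64, 9.55 and 9.41 in H69. The highest H69M array stayed below the lowest H69 array, and SOX5 fell by 0.76 ± 0.099 (log2, SE; limma adjusted p = 0.00047). SOX6, which acts with SOX5 in cartilage and in cortical neurons, fell by 0.29 ± 0.094 from a dim level (limma adjusted p = 0.0385). That call was lost under 5 alternatives, with adjusted p-values between 0.0506 and 0.117. SOX13, a factor of T cell and vascular development, was at 7.13, 7.03 and 7.09 in H69M, against 6.60, 6.84 and 6.64 in H69, and rose by 0.39 ± 0.077 (limma adjusted p = 0.00415).

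The SOXE and SOXF genes did not pass the test. SOX8, SOX10, SOX7 and SOX17 lay below the median level of all genes. Folds from dim values are compressed, so narrow intervals there bound only the change in measured signal. SOX9, the SOXE factor of cartilage and of the distal lung bud, was at 8.52, 8.31 and 8.41 in H69M, against 8.42, 8.43 and 8.36 in H69. The arrays of the lines overlapped, and the log2 fold change was 0.0088 (95% interval -0.15 to 0.17; limma adjusted p = 0.933). SOX10, which specifies neural crest glia and melanocytes, had -0.071 (95% interval -0.24 to 0.096) and SOX8 0.024. Of the SOXF genes, factors of endothelial cells, SOX17 had -0.044 and SOX18 -0.074. SOX7 had 0.21 (limma adjusted p = 0.0653, not past the threshold), and passed when genes below the 25th percentile of level were left out (0.0457) and without H69 replicate 3 (0.0337). SOX15 (0.012) and the spermatid factor SOX30 (-0.050) did not pass either.

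Of 17 measured genes in a list drawn up for SOX9 and cartilage, 5 rose and 2 fell (median -0.039, against -0.041 over all genes). Of the 17, 12 lay below the median level of all genes. The share that passed was 41.2%, against 44.2% of all genes and 31.8% of those below that median. At least 2-fold rises were seen in 4 of the 17 (23.5%, against 5.56% of all genes). The 4 that moved furthest rose. HAPLN1, which links hyaluronan to proteoglycans, rose by 4.73 ± 0.16 (log2, SE), CHST11, a chondroitin sulfotransferase, by 3.25 ± 0.15, the bone factor RUNX2 by 3.18 ± 0.11 and the fibrillar collagen gene COL11A1 by 2.61 ± 0.17. Of further genes of the list, COL2A1 fell by 0.70 ± 0.10, and ACAN (-0.033), COMP (-0.039) and MATN1 (-0.071) did not pass. In the SOX10 list 2 of 12 genes rose and 2 fell (33.3% passed; median -0.097). TFAP2A fell by 1.09 ± 0.088 and PAX3, a neural crest and muscle factor, rose by 0.91 ± 0.070. MITF (-0.044), PMEL (-0.046) and S100B (-0.12) did not pass. In the SOXF list 3 of 12 rose and 2 fell (41.7% passed; median -0.040). TEK, the angiopoietin receptor, rose by 3.28 ± 0.46, PROX1 fell by 0.95 ± 0.12, and CDH5 (-0.0090) and VWF (-0.090) did not pass.

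**Figure D2:**
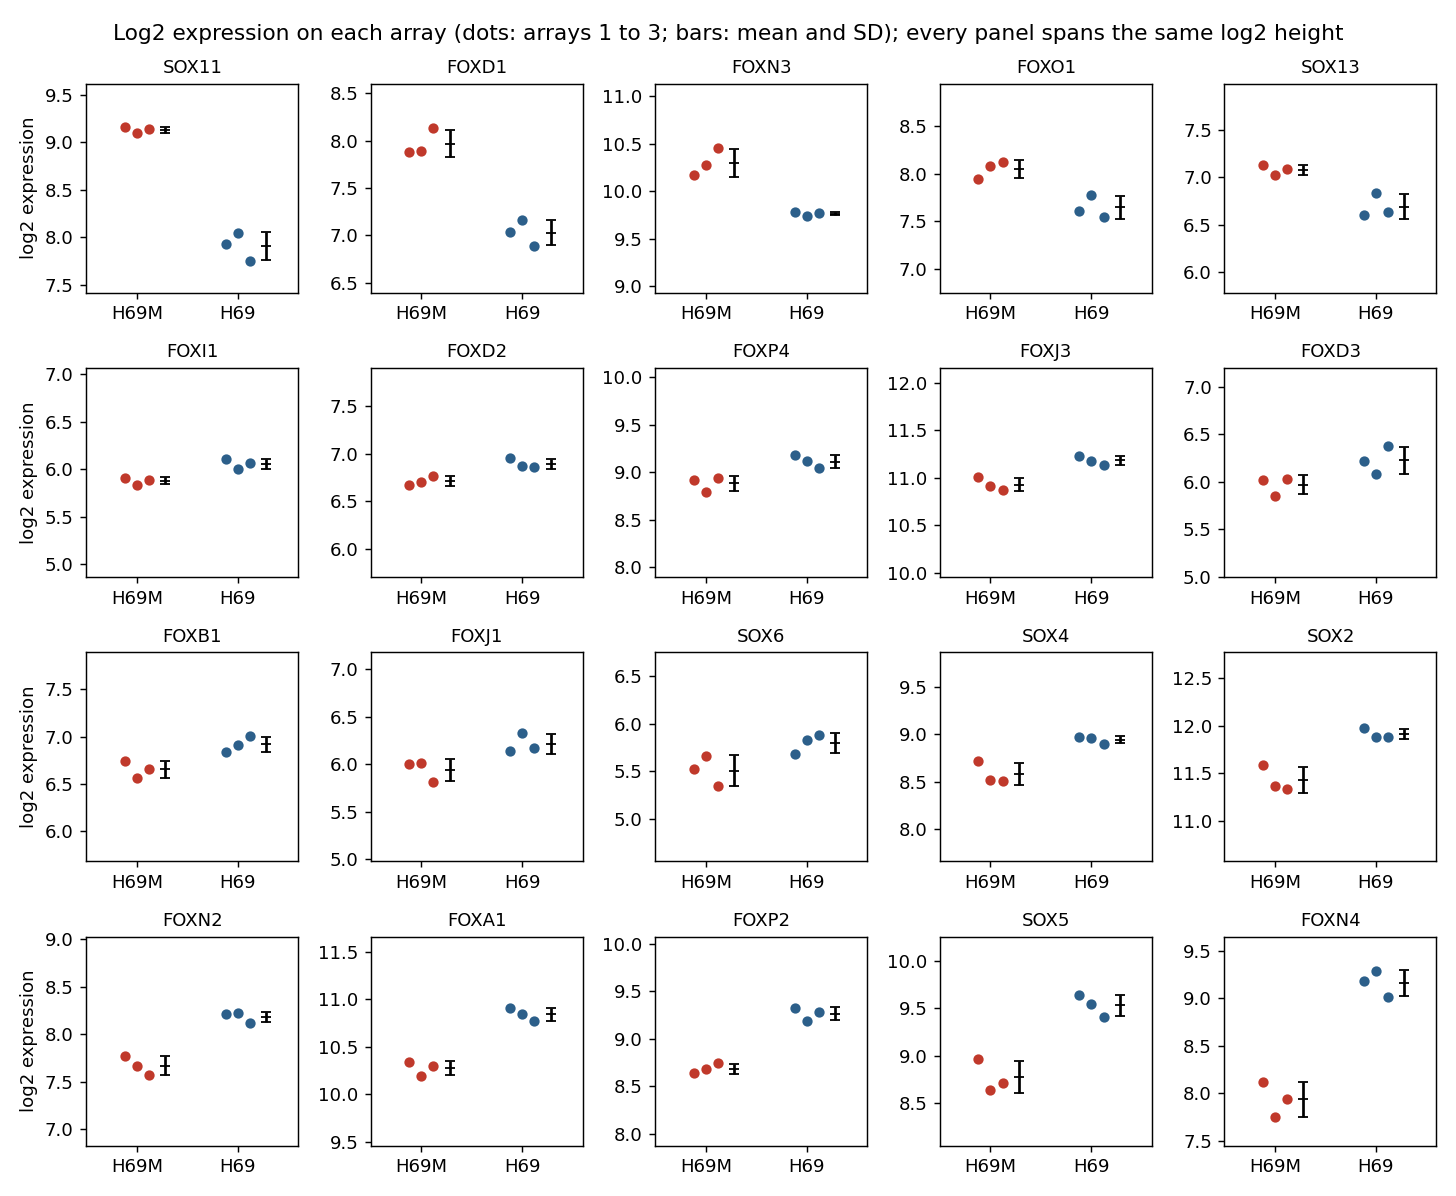
Log2 expression (y axis) of the 20 members that passed the test on each H69M array (left in each panel) and each H69 array (right), with the mean and SD beside the dots; panels run from the largest rise to the largest fall and span the same log2 height. The arrays of the lines do not overlap in any panel, but these genes were picked by a test on the same arrays. Over all genes, 55.8% show no overlap. The gap is widest for SOX11 and FOXN4 and narrowest for SOX6 and FOXD3.

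Among forkhead genes the largest fall was in FOXN4, a factor of retinal and spinal interneuron progenitors. FOXN4 (probe set 7966189, chromosome 12) was at 8.12, 7.75 and 7.93 in H69M, against 9.18, 9.29 and 9.01 in H69. Every H69M array lay below every H69 array. It fell by 1.22 ± 0.11 (log2, SE), a 2.34-fold lower signal in H69M (adjusted p = 5.95e-05 by limma). Of its measured neighbours neither fell: ACACB, an acetyl-CoA carboxylase, rose by 0.65 ± 0.10 (limma adjusted p = 0.00123), and MYO1H had -0.11 (0.436).

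The FOXN group as a whole went both ways. FOXN3, a repressor first described as a checkpoint suppressor in yeast, was at 10.17, 10.28 and 10.46 in H69M, against 9.78, 9.74 and 9.77 in H69. The groups did not overlap, and FOXN3 rose by 0.54 ± 0.081 (limma adjusted p = 0.000984). FOXN2 fell by 0.52 ± 0.070 (limma adjusted p = 0.000554), to 7.67 in H69M, against 8.18 in H69. FOXN1, the factor of thymic epithelium, was dim and did not pass (-0.20, limma adjusted p = 0.0801).

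FOXD1, a factor of kidney stroma and the retina, had the largest rise of the forkhead genes. It was at 7.88, 7.89 and 8.14 in H69M, against 7.03, 7.16 and 6.89 in H69. The groups were well apart, and the log2 fold change of 0.94 ± 0.097 (SE; limma adjusted p = 0.000132) fell just short of 2-fold. Without H69 replicate 2, the highest H69 array, it was 1.004. The other FOXD genes fell slightly: FOXD3, which maintains neural crest progenitors, by 0.26 ± 0.089 (limma adjusted p = 0.0482), and FOXD2 by 0.18 ± 0.060 (0.0391). Both are dim, and these calls were lost under 6 alternatives for FOXD3 (adjusted p between 0.0562 and 0.15) and 7 for FOXD2 (0.0588 to 0.136).

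FOXA1, the endoderm pioneer factor, was bright and fell. It was at 10.34, 10.19 and 10.30 in H69M, against 10.90, 10.85 and 10.77 in H69. The arrays did not overlap, and the log2 fold change was -0.56 ± 0.067 (SE; limma adjusted p = 0.000286), or 1.48-fold lower. FOXA3, its liver-expressed relative, had -0.090 and did not pass, though it fell past the threshold when each array was centred on its median (limma adjusted p = 0.0369) and when quantile normalization was applied again (0.0427). Of 15 measured airway and hepatic genes known as FOXA targets, 1 rose and 1 fell, with a median of -0.12. Of the 15, 13 lay below the median level of all genes. The share that passed was 13.3%, against 44.2% of all genes and 31.8% of those below that median. The lung factor NKX2-1 rose by 0.51 ± 0.083 and SPDEF, a factor of secretory cells, fell by 0.32 ± 0.058. AGR2, the brightest of the list, was at 10.79 in H69M and 10.94 in H69 and did not pass. Surfactant, club cell and liver genes such as SFTPB, SCGB1A1 and ALB were dim in both lines.

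The FOXP proteins repress transcription as dimers, and FOXP1, FOXP2 and FOXP4 are expressed in lung epithelium. FOXP2 was at 8.64, 8.68 and 8.74 in H69M, against 9.32, 9.19 and 9.28 in H69. It fell by 0.58 ± 0.063 (log2, SE; limma adjusted p = 0.000179), with a gap between the groups several times their spread. FOXP4 was at 8.92, 8.79 and 8.94 in H69M, against 9.18, 9.12 and 9.04 in H69, and fell by 0.23 ± 0.068 (limma adjusted p = 0.0257). Its call was lost without H69M replicate 2 (0.0858), H69 replicate 1 (0.0943) or H69 replicate 2 (0.0705). FOXP1 was at 8.99, 8.95 and 9.00 in H69M, against 9.14, 9.09 and 8.98 in H69, overlapped, and did not pass (-0.091; 95% interval -0.24 to 0.056). FOXP3, the factor of regulatory T cells, had -0.18 and did not pass.

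The FOXJ and FOXK genes hold some of the brightest members. FOXJ3, a factor of spermatocytes and muscle, was at 11.00, 10.91 and 10.87 in H69M, against 11.23, 11.18 and 11.14 in H69, and fell by 0.25 ± 0.062 (limma adjusted p = 0.0112). FOXK2, which binds the BAP1 deubiquitinase, was at 10.98, 10.89 and 10.94 in H69M, against 11.01, 11.06 and 10.90 in H69. Its arrays overlapped, and the fold change of -0.050 (95% interval -0.20 to 0.10) did not pass. FOXK1 (0.079) and FOXJ2 (-0.13) did not pass either. Of 20 measured cofactors of FOXK, FOXP and related proteins, 4 rose and 7 fell, with a median of -0.050. Of the 20, 0 lay below the median level of all genes. The share that passed was 55.0%, against 44.2% of all genes and 56.7% of those above that median. The Groucho co-repressor gene TLE4 rose by 2.93 ± 0.091 (log2, SE), while TLE2 fell by 0.92 ± 0.12 and TLE1 by 0.74 ± 0.096. SMAD3, a TGF-beta effector, rose by 0.93 ± 0.074, and SIN3A (-0.045), HDAC1 (0.065) and CTBP1 (0.13) did not pass.

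FOXJ1, the master regulator of motile cilia, was dim and fell by 0.27 ± 0.083 (log2, SE; limma adjusted p = 0.0299). FOXJ1 no longer passed without H69M replicate 3 (0.0843), H69 replicate 2 (0.10) or H69 replicate 3 (0.0543). Of 19 measured ciliary genes 2 rose (10.5%, against 21.0% of all genes) and 7 fell (36.8%, against 23.2%), with a median of -0.14. Of the 19, 15 lay below the median level of all genes. The share that passed was 47.4%, against 44.2% of all genes and 31.8% of those below that median. The dynein gene DNAH11 fell by 0.89 ± 0.13 and RFX3, which works with FOXJ1, by 0.60 ± 0.093, whereas SPAG6, an axonemal protein gene, rose by 1.30 ± 0.076. The axonemal genes DNAI1 (-0.041), DNAH5 (0.042) and TEKT1 (-0.047) were dim and did not pass.

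FOXO1 was the only one of the 3 measured FOXO genes that passed, and it rose. FOXO1 was at 7.95, 8.08 and 8.13 in H69M, against 7.61, 7.78 and 7.55 in H69, and rose by 0.40 ± 0.082 (log2, SE; limma adjusted p = 0.00452). The groups did not overlap. FOXO3 was at 6.70, 6.45 and 6.96 in H69M, against 6.84, 7.06 and 6.97 in H69; its fold change of -0.25 missed the threshold (limma adjusted p = 0.149), yet passed once H69M replicate 3 was left out (-0.38, 0.0209). FOXO3 has a near-identical pseudogene copy, FOXO3B, so its signal is less certain. FOXO4, at 0.18, missed the threshold (limma adjusted p = 0.0619), and passed without H69M replicate 2 and when genes below the 25th percentile of level were left out (0.0414 and 0.0415).

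Of 16 measured regulators upstream of the FOXO proteins 5 rose and 2 fell, with a median of 0.039. Of the 16, 2 lay below the median level of all genes. The share that passed was 43.75%, against 44.2% of all genes and 56.7% of those above that median. Of the 16 regulators, 2 rose by at least 2-fold (12.5%, against 5.56% of all genes). The kinase gene SGK1, whose product phosphorylates FOXO proteins as AKT does, rose by 2.52 ± 0.099 (log2, SE), and the insulin receptor substrate gene IRS1 by 1.43 ± 0.095. PIK3R1, the regulatory subunit of PI3K, fell by 0.67 ± 0.062, and AKT1 rose by 0.26 ± 0.059. Arrays measure RNA, so the phosphorylation of FOXO proteins is not seen here.

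Of 28 measured genes known as FOXO targets, 8 rose and 10 fell (64.3% passed, against 44.2% of all genes; median -0.10). The death ligand gene TNFSF10 (TRAIL) rose by 2.94 ± 0.070 and the repressor gene BCL6 by 2.31 ± 0.094 (log2, SE). The stress genes SESN3 and SESN1 fell by 2.09 ± 0.11 and 1.72 ± 0.10. IRS2, BBC3 and CCND2 did not pass, with fold changes between -0.020 and -0.0077.

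FOXF1, FOXF2, FOXC2, FOXQ1, FOXL1 and FOXS1 did not pass, whereas FOXD1, the factor of kidney stroma described above, rose. FOXF1, a factor of lung and gut mesenchyme, was at 5.90, 5.68 and 5.68 in H69M, against 5.72, 5.79 and 5.89 in H69. These dim values overlapped, and the log2 fold change was -0.047 (95% interval -0.24 to 0.14; limma adjusted p = 0.678). FOXF2 had -0.089 (95% interval -0.26 to 0.082). FOXC2, known for lymphatic vessels and for mesenchymal change in carcinoma cells, was at 7.22, 7.04 and 7.07 in H69M, against 7.17, 7.11 and 7.12 in H69 (-0.023; 95% interval -0.18 to 0.13). FOXQ1, also known from carcinoma cells that turn mesenchymal, had -0.046 (95% interval -0.19 to 0.095), FOXL1 0.048 and FOXS1 0.24, and none of these passed. FOXC2 and FOXL1, next to each other on chromosome 16, and FOXQ1 and FOXF2, next to each other on chromosome 6, had fold changes under 0.1 in size. The remaining pair of adjacent members, FOXE3 and FOXD2 on chromosome 1, had -0.13 and -0.18, and FOXD2 passed.

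Of 23 measured genes known downstream of, or alongside, FOXF and FOXC proteins, 13 rose (56.5%, against 21.0% of all genes) and 3 fell (13.0%, against 23.2%; median 0.36). PRRX1 rose by 5.57 ± 0.16 (log2, SE), PDGFRB by 3.15 ± 0.17, FSTL3 by 2.86 ± 0.13 and the integrin gene ITGB3 by 2.13 ± 0.062; PRRX1 and PDGFRB are also in the fibroblast and mesenchymal list. The hedgehog effector gene GLI1 (-0.0036) did not pass.

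The remaining forkhead genes are known from narrow tissues and were mostly dim. FOXB1, a factor of the developing hypothalamus, fell by 0.26 ± 0.073 (log2, SE; limma adjusted p = 0.0198), a call that was lost without H69M replicate 2 (0.0693), H69 replicate 2 (0.0518) or H69 replicate 3 (0.0658). FOXI1, the factor of ionocytes, fell by 0.18 ± 0.058 (limma adjusted p = 0.0402), and its call was lost under 7 alternatives (0.0517 to 0.136). FOXE1, known from the thyroid, had -0.21 (limma adjusted p = 0.262, not past the threshold), and passed when H69 replicate 3 was left out, whose value of 6.32 lay below 6.77 and 6.86 on the other H69 arrays (-0.37, 0.00932). FOXB2, FOXE3, FOXI2, FOXH1, FOXL2, FOXR1 and FOXR2 did not pass, with fold changes between -0.13 and 0.10. Over all 36 members that did not pass, fold changes lay between -0.25 and 0.24, and the widest interval bounds were -0.54 and 0.48. Of these 36, 14 passed under at least 1 alternative. Beside those given above, FOXN1 (limma adjusted p 0.0127 to 0.0180) and FOXP3 (0.0221 to 0.0448) passed under 3 alternatives each, SOX14, FOXB2 and FOXE3 under 2 each, and SOX1, FOXJ2, FOXP1 and FOXS1 under 1 each.

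**Figure D3:**
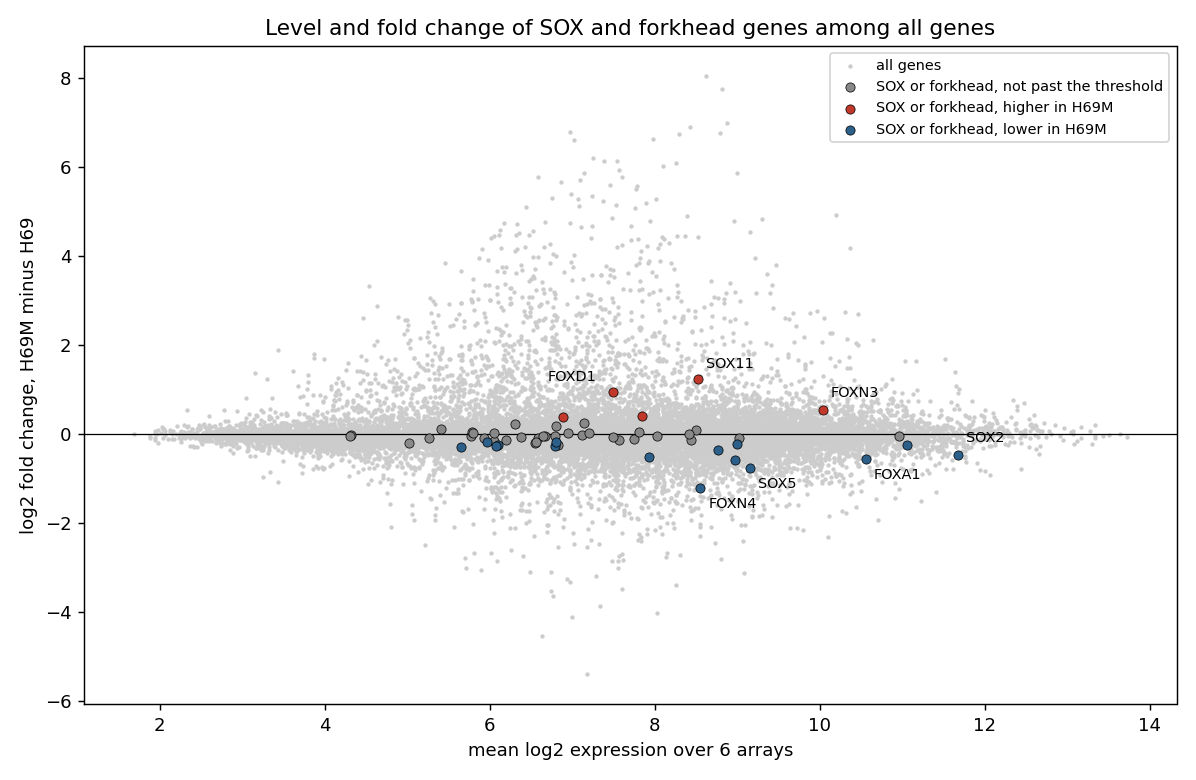
Log2 fold change (H69M minus H69, y axis) against mean log2 expression over the 6 arrays (x axis) for all 18404 genes (light grey) and the 56 SOX and forkhead genes (outlined dots). The members lie between -1.22 and 1.22, while 83 of all genes rose by more than 4; SOX2 is the brightest member and falls by 0.48.

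**Figure D4:**
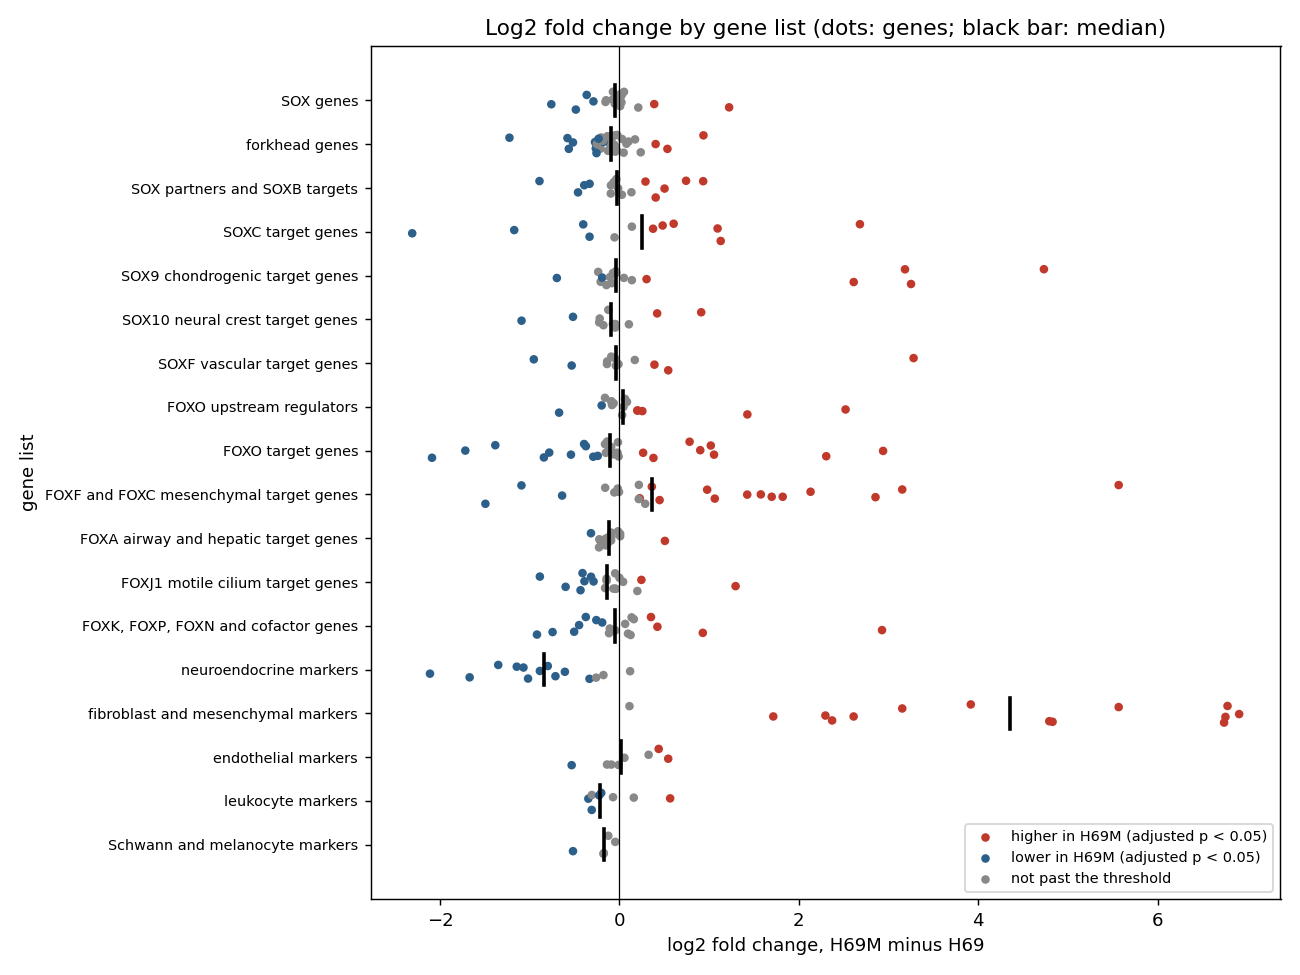
Log2 fold change (x axis) of each measured gene in the SOX and forkhead families, in lists of their partners and targets, and in cell type marker lists (y axis); black bars are medians. The family medians are -0.044 and -0.091, while the fibroblast and mesenchymal markers have a median of 4.36 and the neuroendocrine markers of -0.84.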

How the data were processed

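Total RNA of H69M and H69 (3 arrays each) was turned into biotin-labelled sense-strand target and read on Affymetrix arrays, per the labels' protocols. The deposited values are log2 values for 32321 probe sets; the authors used RMA and limma, per the submitters' processing notes, which give no version. The genome build is not given in the sources used here. The main results use these values without further scaling.

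Genes were named from the 19158 probe sets to which the platform annotation gives 1 symbol, with the highest mean probe set taken for the 637 genes that have several. All 56 members matched the RefSeq gene table by Entrez ID, and 39 matched the promoter table. H69M was compared with H69 in R 4.3.3 by limma 3.58.1 with a two-sided moderated test (lmFit, then eBayes without trend, group as the single term), with Benjamini-Hochberg adjustment over 18404 genes. Fold changes are H69M minus H69. Python 3.11.15 with numpy 2.4.6, pandas 2.3.3 and matplotlib 3.10.9 served for sequences and plots. The same kind of fit was also run on simulated data in which 200 of 18404 genes were changed. It recovered 4 of 50 genes changed by 0.25 (log2), 30 of 50 changed by 0.5 and 47 of 50 changed by 1. False calls numbered 4. Many more genes passed in the real data, a setting that the simulation did not cover.

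Members, lists and alternatives were chosen with earlier results of these data known. Each member that passed at 2-fold or ranked in the top 10 by level is given array by array, the other members that passed by fold change, the rest by counts or intervals; values on each array of further members (FOXD1, SOX13, SOX9, FOXO1, FOXO3, FOXF1 and FOXC2) were added after they had been seen, as were COL2A1 and some list genes that did not pass. From each list, up to 4 genes with the largest change past the threshold were eligible. The nearest measured genes were given for members at 2-fold. Alternatives tried were a block for the replicate number, 2 other scalings, 2 filters on dim genes, 2 other eBayes settings, the mean over probe sets, and leaving out single arrays. The number of arrays limits the precision.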

Additional observations from a re-analysis of the deposited data

How the results depend on the processing

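No SOX or forkhead gene changed direction with a call under any of the 14 alternatives. Of the 20 that passed, 13 kept their call under every alternative that tested them (SOX11, SOX13, SOX2, SOX4, SOX5, FOXA1, FOXD1, FOXJ3, FOXN2, FOXN3, FOXN4, FOXO1 and FOXP2; SOX13 fell outside the test once dim genes under the median were removed). The other 7 lost it under at least 1 (SOX6, FOXB1, FOXD2, FOXD3, FOXI1, FOXJ1 and FOXP4), and 14 others passed under at least 1. The number of forkhead genes that fell was 11, and became 18 with each array centred on its median over the 18404 genes. Those medians were on average 0.090 higher in H69M than in H69, although medians over all probe sets ranged only from 6.43 to 6.48. The number of forkhead falls became 6 after removal of genes under the median level, where 24 members remained to be tested. It was 16 when quantile normalization was applied again, 8 with eBayes trend and 9 with a replicate block. The number of SOX genes that rose was 2, and became 3 with genes below the 25th percentile left out and 1 with those below the median left out. With 1 array left out, forkhead genes that fell numbered 6 to 11 and those that rose 3 to 4, SOX genes that fell 3 to 4 and those that rose 2 to 3, and members at least 2-fold higher 1 to 2 (FOXD1 joined without H69 replicate 2) and lower 1 to 1. The fewest forkhead falls, 6, came without H69M replicate 2 or H69 replicate 2. Replicate numbers did not pair the arrays: deviations from the group means correlated by only 0.021, 0.0072 and 0.0099, and the replicate block cost FOXD2 (limma adjusted p = 0.0853), FOXI1 (0.0682) and SOX6 (0.0506) their calls. Other causes of these shifts were not tested. Dim members limit what 3 arrays can show.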
